A study of Sus scrofa with 12 samples.

Results

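The infarcted area of 4 pigs of the AMI/Placebo biogroup was described by the level of each gene and by its spread between the animals. These were the 4 of 12 arrays of the series that carried the AMI/Placebo title, and no biogroup was compared with another. Each gene with a name was represented by 1 probe set, the one with the highest mean over all 12 arrays, which gave 10912 named genes. Genes were ranked by their mean over the 4 pigs and by their SD over the same pigs. The animals were female Large White pigs in which a balloon closed the left anterior descending coronary artery for 90 min before reperfusion. On day 3 post-infarction they received 5 mL of the medium used to concentrate the secretomes (DMEM with insulin, transferrin and selenium) into the pericardial sac, with no secretome in it. The infarcted tissue came from the anterior wall of the left ventricle on day 7 post-therapy, which is 10 days post-infarction, and total RNA of each pig was hybridized to 1 Affymetrix porcine gene array. Hearts without an infarct were not analysed here, so a level describes the injured wall and cannot be called raised or lowered by the infarction. Each array measured 1 piece of tissue, in which fewer cells of a type and less RNA per cell cannot be told apart.

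An infarct of this age is a wound in repair. Dead cardiomyocytes are cleared by macrophages, which take up debris and digest it in lysosomes. Fibroblasts turn into myofibroblasts that lay down a collagen scar, new vessels grow into it, and the surviving muscle at its edge switches on stress genes such as natriuretic peptides. Neutrophils dominate the first days and become fewer as macrophages take over.

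Signals are given on the log2 scale, so a difference of 1 is a doubling, and per-pig values are listed in the order of replicates 1, 2, 3 and 4. Means are given with the SD over the 4 pigs. The signal of a probe set depends on how well its probes bind as well as on its transcript, so the order of genes is an order of array signal and not of transcript number. As a measure of background, 33 genes known from other tissues (pancreas, pituitary, retina, testis, liver and the like) were read on the same arrays, and the 95th percentile of their means was 2.78. This level is called the other-tissue level below, and the apolipoprotein gene APOA1, at 3.76 ± 0.23, and the kidney water channel AQP2, at 2.80 ± 0.73, were the members above it. Of the 10912 named genes, 5786 had a mean above this level, which is 53.0%, and 4609 were above it in each of the 4 pigs. Counts of list members above this level are to be read beside that share of 53.0%.

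The array of replicate 4 stood apart from the other 3. Its correlation with them over all probe sets lay between 0.856 and 0.872, against 0.934 to 0.951 among replicates 1 to 3. Its values were also drawn together, with an interquartile range of 1.80 against 2.21 to 2.51, and the genes of other tissues were higher on it by 0.30 on average than the mean of the 4 pigs. For several lists in which replicate 4 was the extreme pig, the spread is therefore also given without it or after quantile normalization. Quantile normalization of the 4 arrays gives every array the same distribution. Other values and counts are mostly those of the deposited values alone. The part of tissue sampling, RNA quality or array processing in the difference of replicate 4 from the others was not tested.

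The highest signals came from mitochondrially encoded transcripts, ribosomal and translation proteins, contractile proteins of heart muscle and matrix proteins. The 30 genes with the highest mean held 5 mitochondrially encoded genes, 6 ribosomal proteins, 4 cardiomyocyte genes and 2 collagen scar genes of the lists, and the ribosomal protein RPS28, which is on no list, with means from 9.64 upward. COX1, a core subunit of cytochrome c oxidase, read 12.65, 12.46, 12.70 and 12.91. ND5, a subunit of complex I, read 11.10, 11.38, 11.63 and 11.94. Among genes of the nucleus, the ribosomal protein RPS3 led with 11.16, 10.90, 11.36 and 11.27, followed by the translation elongation factor EEF1A1 with 11.45, 11.19, 11.10 and 10.64. COX1 and RPS3 differed little between pigs, with SDs of 0.19 and 0.20. ND5 and EEF1A1 had SDs of 0.36 and 0.33, close to the median of 0.37 over all named genes. LGALS1, which encodes the lectin galectin-1, averaged 11.06 ± 0.64 and FTL, the light chain of the iron store ferritin, averaged 10.48 ± 0.38. HSP90AB1, a cytosolic chaperone, TXNIP, an inhibitor of thioredoxin, PTN, a secreted growth factor, and TMSB10, an actin-binding peptide, also stood among the 30, at 9.93, 9.85, 9.81 and 9.77.

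**Figure D1:**
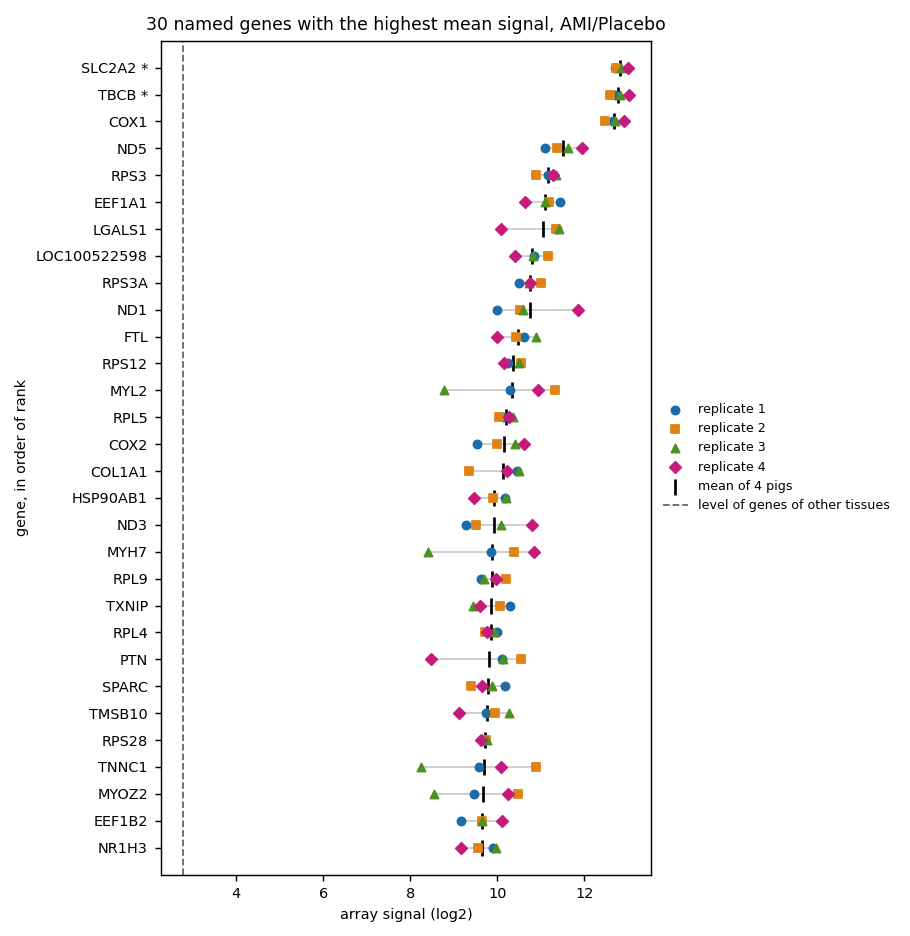
Array signal (log2, x axis) of the 30 named genes with the highest mean over the 4 AMI/Placebo pigs, in order of rank. Coloured symbols are single pigs, black bars are means, the dashed line is the other-tissue level of 2.78, and asterisks mark the SLC2A2 and TBCB probe sets, whose names are in doubt. MYL2, MYH7, TNNC1 and MYOZ2 have replicate 3 as their lowest pig, while RPS3, RPL4 and RPS28 lie within 0.46 between pigs.

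Some of these names were in doubt. The probe sets named SLC2A2, a glucose transporter of liver and pancreas, and TBCB, a tubulin folding cofactor, gave the highest means of all, 12.82 ± 0.14 and 12.78 ± 0.19. By their numbers they lie in the run of mitochondrial probe sets, shortly before ND1. There the RefSeq order of the mitochondrial genome holds ribosomal RNA genes. A separate probe set named TBCB, outside that run, read 5.08, and the names SLC2A2 and TBCB were not used further. For NR1H3, a nuclear receptor that senses oxysterols, the probe set used averaged 9.64 and its other probe set 5.10. Of the 969 named genes with more than 1 probe set, 135 had probe sets whose means were more than 2 apart.

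Heart muscle transcripts were abundant in the infarcted area of each pig, and their level differed widely between pigs. All 19 measured cardiomyocyte markers lay above the other-tissue level, 11 of them in the top 10% of named genes by mean, and their median level was 6.34. MYL2, the regulatory light chain of ventricular myosin, read 10.30, 11.31, 8.77 and 10.94. MYH7, the slow myosin heavy chain, read 9.86, 10.38, 8.40 and 10.85, and TNNC1, the calcium sensor of the thin filament, read 9.58, 10.88, 8.24 and 10.08. In all 3 genes replicate 3 was lowest, by 1.34 or more below the next pig. MYH7 shares much of its sequence with MYH6, so its signal may include both. MYOZ2, a Z-disc protein, averaged 9.68 ± 0.87, ACTC1, cardiac actin, averaged 9.25 ± 1.30 and TTN, the giant spring protein titin, averaged 8.74 ± 0.92.

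The same order of pigs recurred through the list. Replicate 3 was the lowest pig in 18 of the 19 genes and replicate 4 the highest in 14, against 20.1% and 34.6% of all named genes. Of the 19, 13 spanned more than 2 between the lowest and the highest pig, a 4-fold range, against 4.27% of all named genes. The members deviated from the mean of the 4 pigs by -0.23, 0.52, -1.23 and 0.94 on average, a spread of 2.16, the largest of the 36 lists with all 4 pigs. It was 1.75 without replicate 4 and 1.16 without replicate 3, which was less than the 1.68 of the lysosome list in the same 3 pigs. Without replicate 3, 2 of the 19 still spanned more than 2. The widest gaps were those of MYBPC3, a brake on myosin, with 4.27, 5.45, 4.23 and 7.82, ACTN2, the Z-disc crosslinker, with 6.40, 7.0, 4.52 and 8.02, and CSRP3, a muscle LIM protein, with 7.95, 8.87, 6.74 and 10.09. MYBPC3 differed from the others in that replicates 1 and 3 were equally low and replicate 4 alone was high. FABP3, the fatty acid carrier of heart, spanned 4.95, 5.63, 3.63 and 6.63 and RYR2, the calcium release channel, 5.16, 6.17, 3.66 and 6.37. One member did not take part: ATP2A2, the calcium pump of the sarcoplasmic reticulum, chosen here after its values were seen, read 4.49, 4.78, 4.65 and 4.68, a range of 0.29.

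Stress genes of the heart followed heart muscle only in part. Of the 10 measured genes of the cardiac stress and fetal list, 8 lay above the other-tissue level and replicate 3 was the lowest pig in 7, against 53.0% and 20.1% of all named genes. NPPA, which encodes atrial natriuretic peptide, read 5.60, 5.53, 2.50 and 5.49, and NPPB, which encodes B-type natriuretic peptide, read 5.84, 4.87, 3.04 and 5.09. NPPA thus sat below the other-tissue level in replicate 3, and the other 3 pigs lay within 0.10 of each other. ANKRD1, a stretch-responsive repressor protein, read 9.03, 9.36, 7.15 and 9.20, and ACTA1, skeletal actin that the fetal heart also uses, read 6.95, 8.44, 6.45 and 9.0. The list deviated by 0.28, 0.34, -1.07 and 0.46 in the 4 pigs, and its spread of 1.53 fell to 0.18 without replicate 3. MYL7 and MYL4, the light chains of atrial myosin, went another way, with 4.28, 5.02, 3.11 and 3.05 and 3.24, 3.03, 2.04 and 1.96, highest in replicates 1 and 2. Among all genes above the other-tissue level, NPPA was the one in which replicate 3 lay farthest below the other pigs, by 2.99, followed by the immediate early gene EGR1, by 2.35.

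Scar matrix genes were read at a level close to that of heart muscle genes. Of 25 measured fibroblast and matrix genes, 24 lay above the other-tissue level and 17 in the top 10%, with a median of 6.27. COL1A1, a chain of type I collagen, the main collagen of scars, read 10.45, 9.35, 10.49 and 10.23. SPARC, a matricellular protein that binds collagen, read 10.19, 9.39, 9.88 and 9.64, and POSTN, periostin, a product of activated fibroblasts, read 10.17, 9.75, 10.01 and 8.60. COL1A1 and SPARC were lowest in replicate 2 at the probe sets used, while POSTN was lowest in replicate 4. The other probe sets of both were lowest in replicate 4, with 9.82, 9.52, 9.89 and 9.36 and with 6.06, 5.59, 6.40 and 5.51 for COL1A1 and with 8.48, 8.29, 8.24 and 7.95 for SPARC. FN1, fibronectin of the provisional matrix, read 10.41, 10.43, 10.44 and 7.09: replicates 1 to 3 agreed within 0.03 and replicate 4 lay 3.32 below them. DCN, a small proteoglycan that binds collagen fibrils, averaged 9.31 ± 0.54 and COL1A2, the partner chain of COL1A1, averaged 8.31 ± 0.68.

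The spread of the matrix genes was uneven. Replicate 4 was lowest in 15 of 25 and replicate 1 highest in 12, and 5 spanned more than 2, against 33.4%, 19.4% and 4.27% of all named genes. The list deviated by 0.36, 0.32, -0.12 and -0.56, a spread of 0.93, which was 0.48 without replicate 4. LUM, lumican, a keratan sulfate proteoglycan, read 7.36, 8.18, 7.47 and 5.33, and LOX, the enzyme that crosslinks collagen, read 5.45, 6.64, 5.11 and 4.46, so that replicate 2 was high and replicate 4 low. MFAP5, a microfibril protein, went its own way with 5.55, 4.83, 3.32 and 5.82, as did CILP, a matrix protein that restrains TGF-beta, with 5.57, 5.16, 3.29 and 4.69, both lowest in replicate 3. COL8A1, a short-chain collagen singled out after its values were seen, varied least of the list, with 5.06, 5.02, 4.89 and 4.99. VCAN, the large proteoglycan versican, was not on the list but ranked among the 30 genes with the largest SD, with 7.90, 8.40, 7.63 and 4.62.

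Matrix enzymes and their inhibitors ranged from high signals to background. MMP14, a membrane-bound collagenase, averaged 7.45 ± 0.32, MMP2, a gelatinase that MMP14 activates, averaged 5.97 ± 0.34, and the inhibitors TIMP2, TIMP1 and TIMP3 averaged 5.94 ± 0.64, 5.01 ± 0.80 and 4.66 ± 0.26. The secreted collagenases MMP1 and MMP13 and the stromelysin MMP3 stayed below the other-tissue level, at 1.74, 2.03 and 1.40. Of the list, 9 of 17 lay above that level, against 53.0% of all named genes, and the list means of the 4 pigs were within 0.22. TIMP1 alone stood out in replicate 3, with 4.82, 4.83, 6.15 and 4.26. MMP9, the gelatinase of neutrophils and macrophages, read 3.47, 4.78, 4.57 and 2.41 and was below the other-tissue level in replicate 4.

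Signalling of the TGF-beta family, which drives fibroblast activation, was read above the other-tissue level in 15 of 17 genes, against 53.0% of named genes. SMAD4, the common mediator, averaged 6.24 ± 0.12 and SMAD2, a receptor-activated mediator, averaged 5.87 ± 0.55. TGFB1, the ligand of platelets and macrophages, read 4.76, 4.55, 3.0 and 2.78, and its receptor TGFBR1 read 4.31, 4.57, 2.67 and 2.79, both higher in each of replicates 1 and 2 than in replicates 3 and 4, by 1.53 or more. TGFB3 read 4.98, 5.36, 4.13 and 5.24, which is another order, and TGFB2 stayed at 2.70. CTGF, a matricellular target of the pathway, averaged 5.20 ± 0.69. THBS1, thrombospondin-1, which can release TGF-beta from its latent form, averaged 7.95 ± 0.85.

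**Figure D2:**
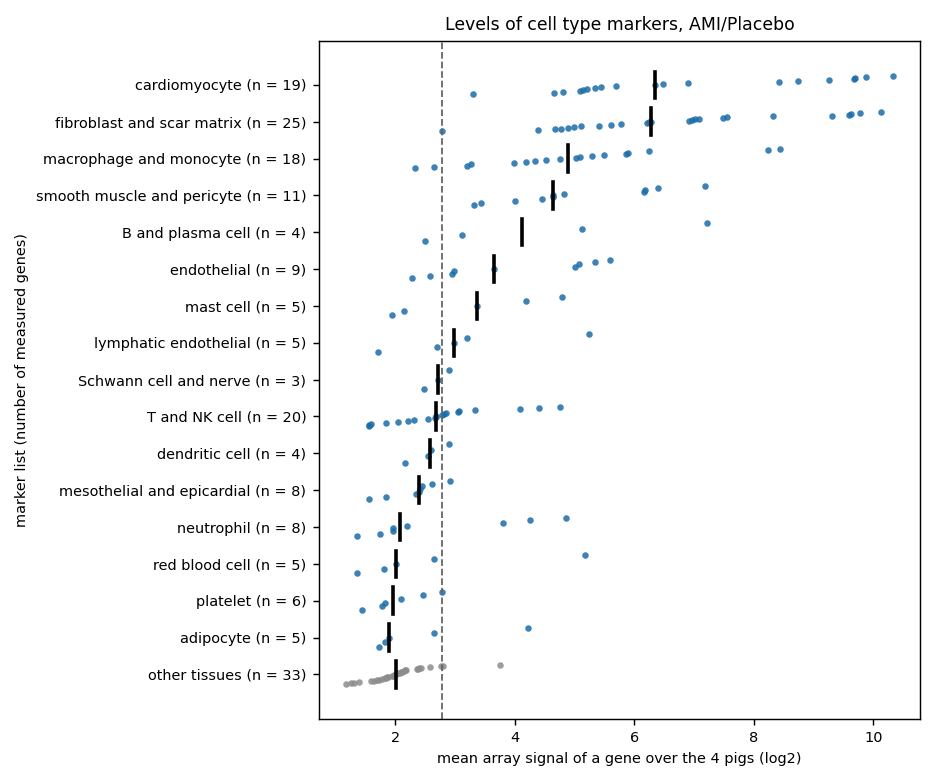
Mean array signal (log2, x axis) of each measured gene of the 16 cell type lists and of the genes of other tissues, over 4 AMI/Placebo pigs. Points are genes, black bars are list medians and the dashed line is the other-tissue level of 2.78. The cardiomyocyte and the fibroblast and scar matrix lists have the highest medians, 6.34 and 6.27, and the neutrophil, platelet and adipocyte lists lie mostly left of the line.

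Mural and endothelial cells were read at intermediate levels. All 11 measured smooth muscle and pericyte genes lay above the other-tissue level, with a median of 4.64. ACTA2, smooth muscle actin, which myofibroblasts share, read 7.87, 7.22, 7.94 and 5.71, and the calponin family genes TAGLN and CNN1 averaged 6.40 ± 0.46 and 6.17 ± 0.48. ACTA2 was lowest in replicate 4, by 1.52. ABCC9 and RGS5, genes of pericytes, averaged 6.17 ± 0.78 and 4.83 ± 0.66, and both were highest in replicate 2. Of 9 endothelial genes, 7 passed the level: the adhesion molecule PECAM1 averaged 5.60 ± 0.28, the angiopoietin receptor TEK 5.34 ± 0.40, the TGF-beta co-receptor ENG 5.08 ± 0.71 and the VEGF receptor KDR 5.0 ± 0.31, while the tight junction gene CLDN5 stayed at 2.27. Endothelial list means lay within 0.25 between pigs, or 0.47 after median centring of the arrays. PDPN, podoplanin, which lymphatic vessels and activated fibroblasts express, read 5.74, 6.05, 5.21 and 3.98, while the lymphatic regulator PROX1 averaged 2.97 ± 0.28.

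Growth factors for vessels were mixed. NRP1, a co-receptor of VEGF, averaged 5.94 ± 0.26, FGF2 5.42 ± 0.23 and VEGFA 5.02 ± 0.36, and their pigs were within 0.85 of each other. VEGFC, the ligand for lymphatic growth, read 5.42, 5.26, 5.73 and 3.03 and HGF, hepatocyte growth factor, read 4.84, 5.53, 5.0 and 2.91. In both, replicate 4 alone was low, by 2.24 and 1.93 below the next pig. The ligands PGF, ANGPT1 and DLL4 lay below the other-tissue level, at 1.94, 2.42 and 2.56.

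Among the leukocyte lists, that of macrophages had the highest median. Of 18 measured genes, 16 lay above the other-tissue level, against 53.0% of all named genes, with a median of 4.89. SPP1, osteopontin, a secreted glycoprotein of macrophages in repair, read 9.53, 9.67, 9.77 and 4.75, so that 3 pigs agreed within 0.23 and replicate 4 lay 4.78 below them, the largest gap of any named gene above the other-tissue level. FCER1G, the signalling chain of Fc receptors, read 8.61, 8.53, 8.86 and 6.97, and C1QB, a chain of complement C1q, read 6.78, 6.30, 6.31 and 5.61. LYZ, lysozyme, read 5.91, 7.37, 6.57 and 3.60, and a second LYZ probe set read 3.51, 3.98, 3.42 and 2.82, again lowest in replicate 4. The scavenger receptors MSR1 and MRC1 averaged 5.48 ± 0.62 and 3.98 ± 0.53, and VSIG4, a complement receptor of resident macrophages, read 5.71, 5.88, 5.11 and 3.67. The co-receptor CD14 and the scavenger receptor MARCO stayed below the other-tissue level, at 2.64 and 2.33.

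Replicate 4 was the lowest pig in 14 of the 18 macrophage genes, against 33.4% of all named genes. The list deviated by 0.24, 0.32, 0.23 and -0.80, and by -0.64 in replicate 4 after quantile normalization. Without replicate 4 the 3 remaining pigs lay within 0.09. Lysosomal genes, which serve the digestion of debris, did the same at a higher level: all 15 lay above the other-tissue level, 10 in the top 10%, and replicate 4 was lowest in 14, against 33.4% of all named genes. Their deviations were 0.32, 0.57, 0.22 and -1.11, and the spread of 1.68 fell to 0.36 without replicate 4 and to 1.25 after quantile normalization. CTSK, cathepsin K, which cleaves collagen, read 7.81, 9.28, 7.52 and 5.60, PSAP, the precursor of saposins, read 7.06, 7.23, 6.81 and 5.01, and HEXA, a hexosaminidase, read 5.87, 6.39, 5.36 and 3.92. CTSK was also 1.47 higher in replicate 2 than in any other pig.

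On the list of complement and Fc receptor signalling, complement genes were higher in replicates 1 and 2, and Fc receptor signalling genes only in part. All 11 lay above the other-tissue level and the list deviated by 0.42, 0.48, -0.28 and -0.63. C1S, a protease of the classical pathway, read 5.88, 6.36, 4.47 and 3.94, its partner C1R read 5.20, 5.07, 3.92 and 4.49 and SERPING1, the inhibitor of both, read 5.21, 4.91, 3.94 and 3.84. Both of replicates 1 and 2 lay above both of replicates 3 and 4 in 8 of the 11 members, against 19.4% of all named genes. C3, the hub of the cascade, averaged 5.46 ± 0.57 and was highest in replicate 1. The exceptions were FCGR2B, an inhibitory Fc receptor, with 4.92, 4.86, 5.07 and 3.80, the kinase SYK with 3.41, 3.30, 3.41 and 2.63 and the phospholipase PLCG2 with 4.25, 3.72, 4.33 and 3.77, in which replicate 3 was as high as replicate 1 or higher. The kinase LYN barely belonged to the 8, with 3.46, 3.54, 3.44 and 2.88. The complement C1q chains, kept on the macrophage list, did not share this order. C1QA read 4.45, 4.52, 5.02 and 4.10 and C1QC read 4.48, 4.46, 4.64 and 3.79, both highest in replicate 3. C1QB was highest in replicate 1, with replicate 3 level with replicate 2.

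Some genes of antigen presentation by MHC class II were high and steady. Of 9 genes, 8 passed the other-tissue level, against 53.0% of all named genes, with a median of 4.75. SLA-DQA1, SLA-DRA and SLA-DQB1, chains of the pig class II molecules, were steady and averaged 7.53 ± 0.25, 7.36 ± 0.19 and 5.99 ± 0.11. The chain SLA-DRB1 was not steady, with 5.33, 3.42, 4.85 and 2.91. SLA-DOA and SLA-DOB were low, at 2.81 and 2.45. CIITA, the master regulator of these genes, averaged 3.40 ± 0.41. The list means of the pigs lay within 0.48.

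Neutrophil markers were mostly at background, and T and NK cell markers passed the other-tissue level in a share near that of all named genes. Of 8 neutrophil genes, 3 lay above the other-tissue level, against 53.0% of all named genes. The granule enzyme MPO and the receptor CXCR2 read 1.74 and 1.95. The calcium-binding alarmins S100A8 and S100A12 read 4.94, 4.84, 6.35 and 3.30 and 3.94, 4.63, 5.86 and 2.57, in both cases highest in replicate 3 and lowest in replicate 4. S100A9 of the same list had a mean of 2.20, below the other-tissue level. It read 1.72, 2.13, 3.01 and 1.94, highest in replicate 3 but lowest in replicate 1. Of 20 T and NK cell genes, 9 passed, against 53.0% of all named genes. They were led by the adhesion receptor CD2, the NK receptor NCR1 and the granule protein NKG7, at 4.75 ± 0.28, 4.41 ± 0.94 and 4.08 ± 0.41. The defining chains CD3E, CD4 and CD8A stayed at 2.05, 2.31 and 2.54. IL7R, the receptor for interleukin 7, read 4.45, 3.70, 3.45 and 1.76, and NCR1 read 4.07, 3.76, 3.99 and 5.80, which are opposite orders for replicate 4.

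Other cell types were represented by a few genes of each list. Of 4 B and plasma cell genes, 3 passed the other-tissue level. CD79A, a chain of the B cell receptor, averaged 7.21 ± 0.30, but its partner CD79B read 2.49 and the second CD79A probe set 2.27, so its high signal was not shared by the complex. The adaptor BLNK and the coactivator POU2AF1 averaged 5.11 ± 0.66 and 3.12 ± 0.28. Of 5 mast cell genes, 3 passed: KIT, the stem cell factor receptor, averaged 4.79 ± 0.53 and MS4A2, a chain of the IgE receptor, 4.18 ± 0.05 and the transcription factor GATA2 3.37 ± 0.38, while the receptor chain FCER1A stayed at 1.94. HBB, beta globin, read 5.48, 4.14, 6.26 and 4.78, with the erythroid enzyme ALAS2 at 2.01. LPL, lipoprotein lipase, which muscle and macrophages also make, averaged 4.23 ± 0.43, and the fat droplet gene PLIN1 2.65. KRT8 was the sole mesothelial gene of 8 to pass, at 2.91 ± 0.43, and the epicardial regulator WT1 averaged 2.40. ITGA2B of the platelet list passed by less than 0.01, at 2.78 ± 0.33, and 1 of 3 nerve genes, CDH19, passed at 2.89 ± 0.55.

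The type I interferon response separated replicates 1 and 2 from replicates 3 and 4. These genes encode antiviral effectors that cells switch on when interferon alpha or beta binds. Of 21 measured members, 20 lay above the other-tissue level. OAS2, an oligoadenylate synthetase that senses double-stranded RNA, read 7.50, 6.84, 3.66 and 4.21. IFIT1 and IFIT3, which bind foreign RNA, read 6.07, 6.44, 3.58 and 4.48 and 6.33, 6.29, 3.59 and 3.60. In each of these genes the lower of replicates 1 and 2 was at least 1.58 above the higher of replicates 3 and 4. XAF1, a proapoptotic target, read 6.09, 5.64, 4.04 and 4.04 and IFI44 read 4.69, 5.17, 3.30 and 2.82, again in pairs. EIF2AK2, the kinase that halts translation, had the highest level of the list, with 6.89, 7.02, 6.02 and 5.38.

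Replicate 1 was the highest pig in 14 of the 21, replicate 2 in 6, replicate 4 in 1 and replicate 3 in 0, against 19.4%, 25.9%, 34.6% and 19.9% of all named genes. Both of replicates 1 and 2 lay above both of replicates 3 and 4 in 19 of the 21, against 19.4% of all named genes, and 7 spanned more than 2, against 4.27%. The spread of the list, 1.50, was 1.41 after quantile normalization and lay between 1.20 and 1.50 with any 1 pig left out. Interferon gamma targets kept this order of pigs in part and with a smaller spread of 0.44. The list deviated by 0.09, 0.23, -0.11 and -0.21, the peptide transporter TAP1 averaged 4.85 ± 0.17, and the cytokine IFNG itself stayed at 1.58. The chemokines CXCL10 and CXCL11, which both interferons induce, were above the other-tissue level in replicate 2 alone, with 2.09, 3.55, 1.76 and 2.08 and 1.70, 3.19, 1.49 and 1.49.

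Classical inflammatory cytokines were close to background. IL6, TNF, CXCL8 and IL1A read 2.62, 2.52, 2.52 and 2.36, and the inducible cyclooxygenase PTGS2 read 2.53. Of 17 genes of the TNF and NF-kappa B response, 9 passed the other-tissue level, against 53.0% of all named genes. They were led by the mitochondrial dismutase SOD2 and the factors NFKB2 and NFKB1, at 5.50 ± 0.41, 5.29 ± 0.20 and 5.05 ± 0.31. The adhesion molecule VCAM1 and the hyaluronan-binding protein TNFAIP6 were highest in replicate 2, with 4.42, 5.71, 4.06 and 4.07 and 3.78, 5.25, 3.86 and 3.40. IL1B2, a pig interleukin-1 beta gene, had the largest SD of all named genes and read 2.66, 3.09, 4.31 and 8.08. A neighbouring probe set that carries the names IL1B and IL1B2 together read 1.85, 1.62, 2.16 and 3.20, also highest in replicate 4 but 4.88 lower there than the probe set of IL1B2 alone.

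Of 21 measured chemokines, 9 passed the other-tissue level, against 53.0% of all named genes. CXCL14, a chemokine of stromal cells, led with 6.24, 7.96, 6.33 and 3.73, a range of 4.23 with replicate 2 high and replicate 4 low. CCL2, the main attractant of monocytes, read 4.54, 5.07, 5.26 and 3.18, and CXCL16, a scavenger receptor that also acts as a chemokine, read 4.68, 5.32, 3.60 and 3.33. The list means lay within 0.13, or 0.26 after quantile normalization. Replicates 1, 2, 3 and 4 were the highest pig in 3, 5, 6 and 7 of the 21 chemokines. Over all named genes these shares were 19.4%, 25.9%, 19.9% and 34.6%.

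**Figure D3:**
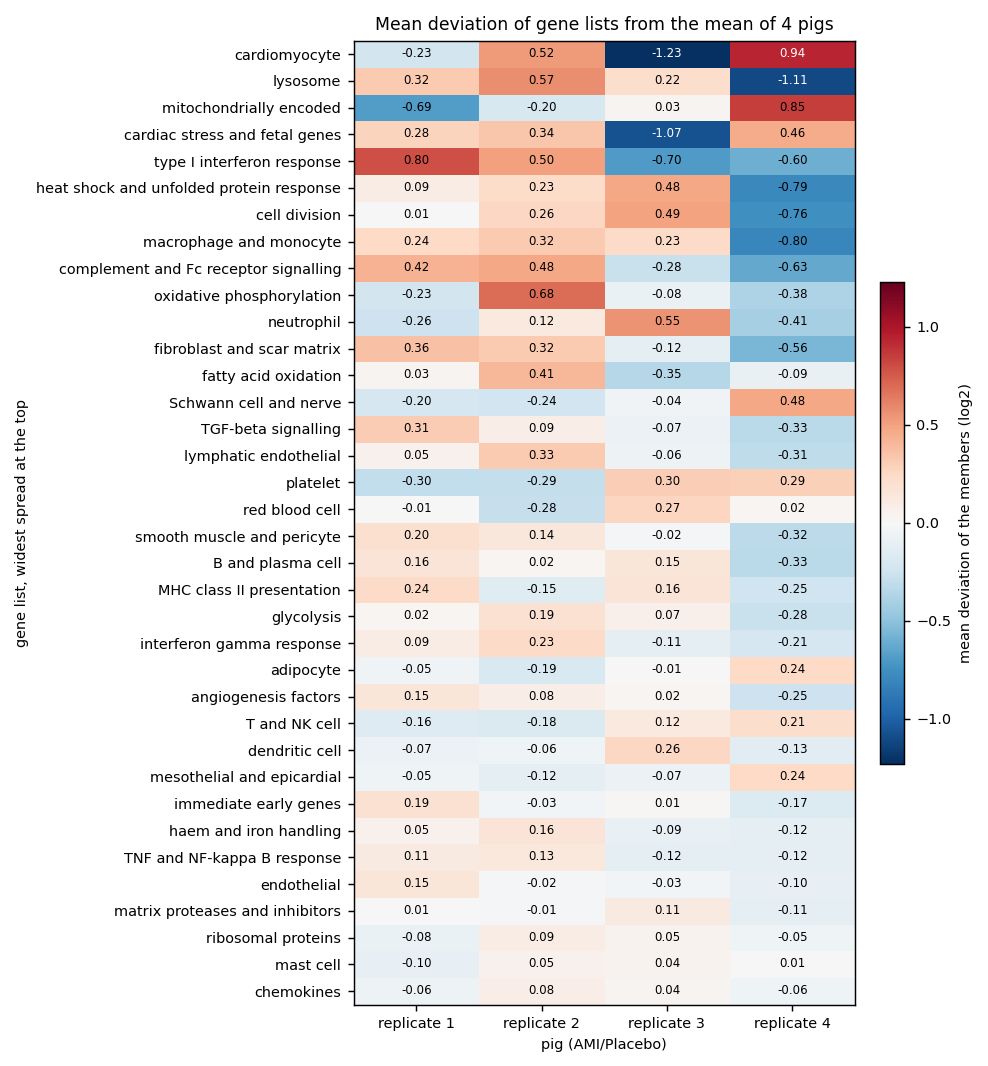
Mean deviation (log2, colour and printed number) of the members of each gene list from their mean over the 4 AMI/Placebo pigs, for 36 lists ordered by spread and 4 pigs. Red is above and blue below the mean; replicate 3 is low in cardiomyocyte and cardiac stress genes (-1.23 and -1.07), replicate 4 low in lysosome and macrophage genes (-1.11 and -0.80), and replicates 1 and 2 high in type I interferon genes (0.80 and 0.50).

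Genes of energy metabolism were high, and the mitochondrial and the nuclear subunits of the respiratory chain ordered the pigs differently. All 18 measured nuclear subunits lay above the other-tissue level, 10 in the top 10%, with a median of 5.87. Replicate 2 was the highest pig in 15 of them, against 25.9% of all named genes, and the list deviated by -0.23, 0.68, -0.08 and -0.38. The spread of 1.06 was 0.30 without replicate 2. ATP5A1, the alpha subunit of ATP synthase, read 8.58, 9.27, 8.57 and 8.52, UQCRB of complex III read 7.97, 9.20, 8.25 and 7.74 and NDUFB5 of complex I read 5.09, 7.11, 4.87 and 4.22. NDUFB5 was the gene above the other-tissue level in which replicate 2 exceeded the other pigs most, by 2.03, and UQCR10, a further subunit of complex III, exceeded them by 1.94.

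The 8 named mitochondrially encoded genes, grouped after their values were seen, were highest in replicate 4 in all 8 and lowest in replicate 1 in 7, against 34.6% and 20.7% of all named genes. ND1 read 9.98, 10.53, 10.60 and 11.85, ND2 read 5.29, 6.25, 6.40 and 7.85 and ND6 read 2.16, 3.51, 3.43 and 5.28. Their deviations were -0.69, -0.20, 0.03 and 0.85, and 0.80 in replicate 4 after quantile normalization. The spread of 1.54 was 0.72 without replicate 4 and 1.04 without replicate 1. Replicate 4 was thus the highest pig in 8 of 8 mitochondrially encoded and 14 of 19 cardiomyocyte genes. It was the lowest in 11 of 18 nuclear subunits, against 33.4% of all named genes.

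Fatty acid oxidation, the main fuel route of healthy heart, was read above the other-tissue level in 15 of 16 genes. CD36, the fatty acid transporter, read 7.01, 7.45, 5.81 and 6.88, ACADM, medium-chain acyl-CoA dehydrogenase, read 6.05, 6.82, 5.65 and 5.45 and HADHB of the trifunctional protein read 6.28, 6.61, 4.75 and 4.55. Replicate 2 was highest in 10 of the 16 and replicate 3 lowest in 7, against 25.9% and 20.1% of all named genes. In glycolysis, GAPDH was nearly constant, with 9.33, 9.36, 9.34 and 9.04, and LDHA, the lactate dehydrogenase of muscle and hypoxic tissue, read 8.74, 9.10, 9.42 and 6.81. PGAM2 and ENO3, the muscle isozymes, averaged 3.95 ± 0.32 and 4.73 ± 0.96, and ENO3 was lowest in replicate 3 as heart muscle genes were, with 4.46, 5.24, 3.52 and 5.69.

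Chaperones were strongly read and lowest in replicate 4. All 19 genes of the heat shock and unfolded protein response lay above the other-tissue level, 11 in the top 10%. Replicate 4 was the lowest pig in 16 and replicate 3 the highest in 11 of the 19, against 33.4% and 19.9% of all named genes. HSP90AA1, a cytosolic chaperone, read 9.41, 9.67, 9.80 and 7.86, HSPA8, the constitutive HSP70, read 9.07, 9.12, 9.77 and 7.35 and HSP90B1, the HSP90 of the endoplasmic reticulum, read 7.57, 8.19, 8.14 and 5.73. DNAJB1, a stress-induced co-chaperone, read 5.51, 4.23, 6.89 and 3.79 and exceeded the other pigs by 1.38 in replicate 3. The list deviated by -0.79 in replicate 4, by -0.55 after quantile normalization, and its spread of 1.27 was 0.39 without that pig.

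Ribosomal proteins were high and varied little. Of 30 measured, 29 lay above the other-tissue level and 23 in the top 10%, 0 spanned more than 2, and the list means lay within 0.17. RPL19 and RPL4 had SDs of 0.08 and 0.13, and RPS28, which is not on the list, had an SD of 0.06. RPS6 was the member below the level, at 1.27.

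Cell division genes lay near the middle of all named genes and separated the pigs. Their median level was 3.06, against 2.89 over all named genes. Of 11 measured, 9 lay above the other-tissue level, against 53.0% of all named genes. Replicate 4 was lowest in 8 and replicate 3 highest in 6, against 33.4% and 19.9% of all named genes. TOP2A, the topoisomerase of dividing cells, read 4.86, 5.38, 5.99 and 3.96, CCNA2, cyclin A2, read 3.32, 3.66, 4.67 and 1.79 and KIF20A, a kinesin of cytokinesis, read 4.25, 4.10, 4.64 and 2.13. CKS2, a partner of the cyclin-dependent kinases outside the list, read 5.67, 5.77, 6.77 and 2.79. The spread of 1.25 was 0.48 without replicate 4 and 1.40 after quantile normalization.

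Immediate early genes, which respond to stimuli within minutes, did not move together. JUN averaged 6.52 ± 0.64 and ATF3 5.64 ± 0.25. EGR1 read 5.60, 5.03, 2.68 and 5.92, low in replicate 3 alone. EGR2 read 3.52, 4.28, 4.25 and 2.52, low in replicate 4 alone. Genes of haem and iron handling, active where red cells are cleared, had a median SD of 0.40, against 0.39 for the immediate early genes. Beside FTL, the haem scavenger receptor LRP1 averaged 6.54 ± 0.31, the iron exporter SLC40A1 5.90 ± 0.54 and the ferritin receptor of autophagy NCOA4 5.48 ± 0.41, and the plasma scavenger HPX stayed at 1.97. The haemoglobin scavenger HP read 2.09, 1.73, 1.27 and 3.29, above the other-tissue level in replicate 4 alone. On that array the genes of other tissues were also higher, by 0.30 on average, and GAST among them read 3.37. The value of HP in replicate 4 therefore cannot be told from background.

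Across all named genes the spread between pigs was modest and grew with level. The median SD was 0.37, and it rose from 0.24 in the 10% of genes with the lowest means to 0.47 in the 10% with the highest. Of the genes with the lowest means 0.37% spanned more than 2, and of those with the highest 9.71%. In all, 466 genes (4.27%) spanned more than 2. Replicate 4 was the lowest pig in 299 of them and the highest in 107, and replicate 2 was the highest in 227. The count was 83 without replicate 4, 289 without replicate 2, 352 without replicate 3 and 409 without replicate 1. After quantile normalization 394 genes spanned more than 2, of which 347 were among the 466.

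**Figure D4:**
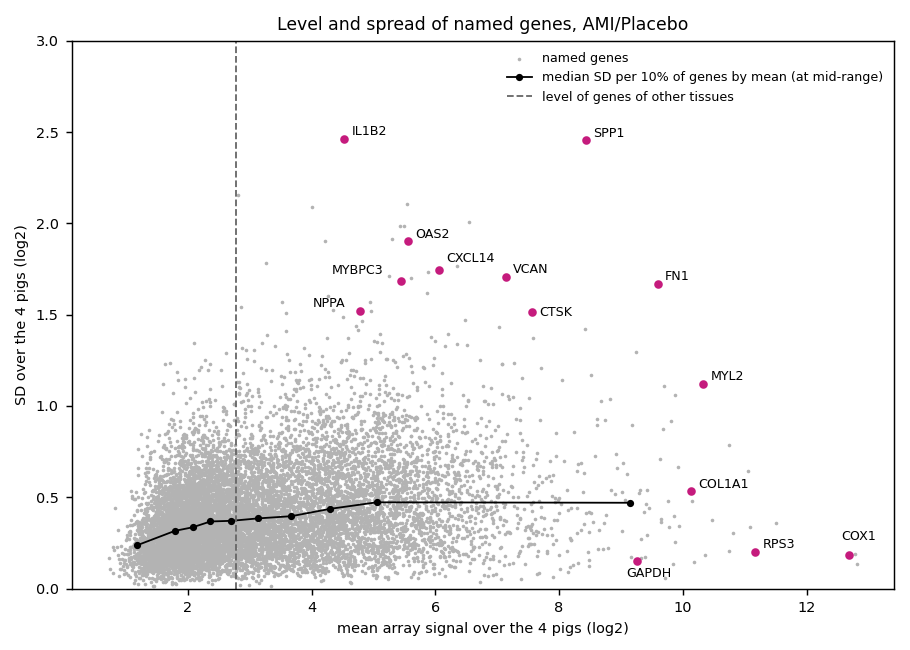
SD over the 4 AMI/Placebo pigs (log2, y axis) against mean array signal (log2, x axis) for 10912 named genes (grey points). The black line is the median SD in 10 equal groups of genes by mean, drawn at the middle of each group's range, the dashed line is the other-tissue level of 2.78, and pink points are genes named in the text. IL1B2 and SPP1 have the largest SDs (2.46 and 2.45), while RPS3 and COX1 combine a high level with an SD of 0.20 or less.

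The 30 genes with the largest SD shared no gene with the 30 of the highest mean. Replicate 4 was the lowest pig in 19 of them, and 10 of the 30 stayed in the ranking without it. After IL1B2 and SPP1, AQP9, a channel for water and glycerol in leukocytes, read 6.08, 7.02, 6.28 and 2.57, SRGN, the proteoglycan of leukocyte granules, read 5.86, 6.56, 6.31 and 2.46, and TCN1, a vitamin B12 carrier of neutrophil granules, read 4.35, 5.94, 4.71 and 1.04. GPR183, a receptor for oxysterols on immune cells, read 6.66, 6.33, 6.39 and 3.07. All 4 were low in replicate 4 alone. CLEC7A, the beta-glucan receptor of myeloid cells, read 5.42, 5.86, 3.46 and 2.68, so that replicates 1 and 2 were high, as in the interferon list. UGGT1, a folding sensor of the endoplasmic reticulum, read 5.37, 5.13, 4.99 and 1.37, but its other probe set read 4.07, 4.41, 4.43 and 3.69, a far smaller fall in replicate 4.

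**Figure D5:**
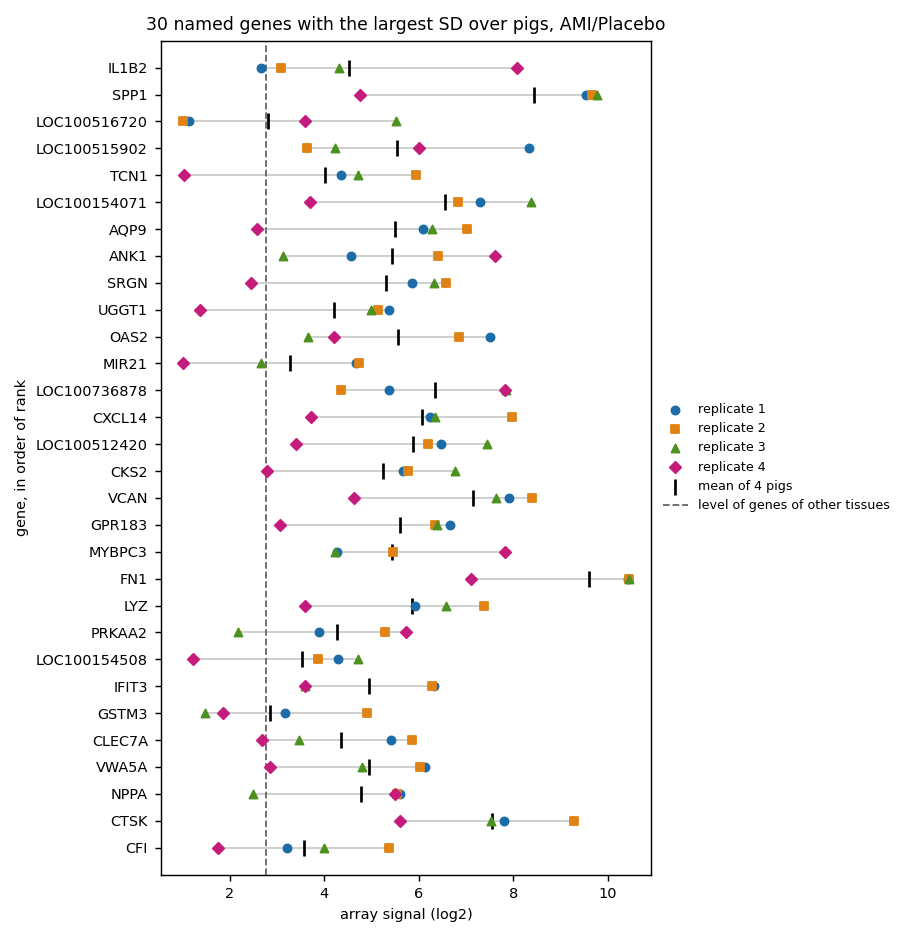
Array signal (log2, x axis) of the 30 named genes with the largest SD over the 4 AMI/Placebo pigs, in order of rank. Coloured symbols are single pigs, black bars are means and the dashed line is the other-tissue level of 2.78. Replicate 4 is the lowest pig in 19 of the 30 genes and lies far above the others in IL1B2.

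Muscle and metabolic genes also stood in this ranking. ANK1, whose muscle isoform links the sarcoplasmic reticulum to the contractile lattice, read 4.56, 6.40, 3.12 and 7.62 at the probe set used, low in replicate 3 as heart muscle genes were, while its 3 other probe sets had means of 2.86 or less. PRKAA2, the catalytic subunit of AMP-activated kinase in muscle, read 3.89, 5.28, 2.17 and 5.74, again lowest in replicate 3. GSTM3, a glutathione transferase, read 3.17, 4.90, 1.48 and 1.86 and CFI, a complement inhibitor, read 3.20, 5.37, 4.0 and 1.76, both highest in replicate 2. MIR21, the gene of a microRNA induced in injured heart, read 4.67, 4.73, 2.66 and 1.01, and this signal is of the probe set of the gene and not a measure of mature microRNA. A further 6 of the 30 carry no descriptive symbol and are not described.

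The 10 steadiest genes of the top 10% by level had SDs of 0.04 to 0.07. They were DPCD, DIAPH2, ZRANB2, KRTCAP2, RPS28, TPM2, SPATS2L, RBFOX2, MACF1 and PNISR. TPM2, beta tropomyosin of smooth and slow muscle, read 7.86, 7.84, 7.97 and 7.95, although other muscle genes spanned more than 2. ZRANB2, RBFOX2 and PNISR bind RNA or take part in splicing, and MACF1 links actin with microtubules.

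Each pig had genes in which it stood apart from the other 3 by more than 1, among genes above the other-tissue level. In replicate 1 there were 9 above and 6 below, in replicate 2 102 and 11, in replicate 3 22 and 58, and in replicate 4 106 and 601. These counts are of the deposited values, in which the values of replicate 4 were drawn together. The genes of replicate 1 included the antiviral sensor OAS1, the checkpoint ligand PDCD1LG2 and the secreted hormone STC1, at 4.55, 5.07 and 5.52 against at most 3.52, 4.05 and 4.28 in the others. Those of replicate 2 included NDUFB5, UQCR10, LY96, the co-receptor of endotoxin, with 3.29, 5.14, 3.45 and 2.36, and FGFR2 with 2.63, 4.42, 2.11 and 2.77. CSF3, the granulocyte growth factor, was lowest in replicate 2 and highest in replicate 4, with 2.90, 1.27, 2.85 and 4.49. Replicate 3 stood above in ARG1, arginase of myeloid cells, with 4.18, 4.45, 5.67 and 3.64, in GPR65, a proton-sensing receptor of leukocytes, with 3.32, 3.61, 5.03 and 2.53, and in KIF23, a kinesin of cytokinesis, with 3.41, 3.59, 4.82 and 2.69, beside S100A8, S100A12, TIMP1 and DNAJB1. It stood below in PI16, a marker of adventitial fibroblasts, with 5.77, 5.93, 3.88 and 5.62, beside the natriuretic peptide and muscle genes.

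Over the principal components of the centred values of all named genes, the first carried 61.9% of the variance and set replicate 4 against the others, the second carried 22.6% and set replicate 2 against replicate 3, and the third carried 15.5% and set replicate 1 against replicates 2 and 3. The 3 components of 4 arrays hold all of their variance.

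The genes that the study also measured by qPCR were read from high levels to below the other-tissue level in these pigs. CDC42, a small GTPase of the cytoskeleton, THBS1 and STAT3, the transcription factor of interleukin 6 signalling, ranked 63, 111 and 259 of 10912 by level, at 8.65 ± 0.32, 7.95 ± 0.85 and 7.0 ± 0.50. The insulin-like growth factor receptor IGF1R, the lipid carrier APOE, the repressor BCL6 and the transferrin receptor TFRC averaged 4.78 ± 0.44, 4.76 ± 0.39, 4.09 ± 0.27 and 4.08 ± 0.34. BMP6, the decoy chemokine receptor ACKR2 and the cytokine LIF were near the other-tissue level, at 3.35 ± 0.30, 3.22 ± 0.22 and 2.99 ± 0.43, and the chemokine receptor CXCR6 was below it, at 2.47 ± 0.07. THBS1 had the largest spread of them, with 8.78, 7.53, 8.52 and 6.95, high in replicates 1 and 3. RPS3, the reference gene of that assay, had an SD of 0.20.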

How the data were processed

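Total RNA of infarcted left ventricular wall was hybridized to 1 porcine gene array for each pig. The deposited log2 values were made by the authors with the RMA method of oligo (version not given in the sources used here), which corrects background, normalizes all 12 arrays together by quantiles of probes and summarises 27558 probe sets. All 12 columns were mapped to a biogroup by their labels, 0 were left over, and the 4 of AMI/Placebo were described. Nothing here is a test: 1 group with 1 array per pig was described by means and SDs, and precision is limited by the number of arrays.

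Names came from the table of the platform, which gives 11982 probe sets 1 symbol and 373 several and does not list 15203. Of the named ones, 10922 matched a RefSeq pig gene (assembly Sscrofa11.1) by Entrez identifier, and 0 symbols changed. A name joined by several genes was not used, and 1056 of the 10912 genes carry only a LOC number. Gene lists (16 of cell types, 19 of processes, and genes of other tissues as background) were matched by exact symbol, and 445 of 677 written genes were measured. The level was the 95th percentile of the genes of other tissues. A list was described by the median of its members' means, by counts beside those of all named genes, and by the mean deviation of its members in each pig. The genes named were the 30 highest by mean, the 30 largest by SD, the 10 smallest SDs in the top 10% by mean, up to 6 members of each list by mean and up to 6 by SD, RPS3 and the genes of the qPCR assay, defining markers below the level, and per pig the 10 genes farthest above and the 10 farthest below the others. The members, lists and rules were chosen with earlier results of these data known. Alternatives were median centring, quantile normalization of the 4 arrays, another probe set per gene, the mean over probe sets, other levels, other measures of spread, and leaving out each pig. Values were computed with Python 3.11.15, numpy 2.4.6 and pandas 2.3.3, and the functions were tested on simulated data. Sequences and genome positions are not given.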

Additional observations from a re-analysis of the deposited data

Results flagged for a closer look

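In 2 of 36 gene lists and 15 of 116 genes whose 4 values are given, 1 pig lay farther from the other 3 than Dixon's criterion for 4 values allows at the 95% level. The 116 genes include those named for a large SD or for a pig far from the others, so their count cannot be set against chance. Among groups not chosen in this way, chance alone flags about 1 in 20. Of the 5786 genes above the other-tissue level, 407 (7.03%) met the criterion, 270 of them through replicate 4.

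Replicate 4 was the outlying pig for the macrophage and monocyte list, with a mean deviation of -0.80. Its single low values were those of FN1 at 7.09, SPP1 at 4.75, GPR183 at 3.07, SRGN at 2.46, UGGT1 at 1.37, FCGR2B at 3.80, LYN at 2.88, SYK at 2.63 and GAPDH at 9.04. For GAPDH the gap was 0.29. NCR1 was high in this pig, at 5.80.

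Replicate 3 was the outlying pig for the cardiac stress and fetal list, with a mean deviation of -1.07, and for NPPA at 2.50, ANKRD1 at 7.15 and PI16 at 3.88. Replicate 2 was the outlying pig for ATP5A1 at 9.27 and for CXCL11 at 3.19, both higher than in the other 3 pigs. No list or gene of this set had replicate 1 as its outlying pig. What set these pigs apart was not tested.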

How the results depend on the processing

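No paired analysis was possible because 1 biogroup was described and no groups were compared. The count of genes above the other-tissue level, 5786, stayed between 5492 and 5891 under every alternative run, and 26 of 35 lists, the mitochondrially encoded genes not counted, had a median above that level, or 25 to 27 with a pig left out. Counting members above the level alone gives 35 of 35 by construction. The number of genes that spanned more than 2, 466 with all pigs, lay between 83 and 409 with a pig left out and was 601 after median centring and 394 after quantile normalization. Lists whose pigs spanned more than 1 numbered 9, or 3 to 9 with a pig left out, 6 after quantile normalization, 11 after median centring and 10 with the mean over probe sets. The 30 genes of the highest mean shared 26 to 29 with the ranking without a pig, and 21 with the mean over probe sets. The 30 genes of the largest SD shared 10 to 25 with the ranking without a pig, and 9 when the coefficient of variation on the linear scale replaced the SD. Of the pigs left out, replicate 4 gave the lowest of these values, 83 wide genes, 3 lists and 26 and 10 shared genes, and leaving out replicate 2 gave 289 genes that spanned more than 2. The spread of 14 of 35 lists moved by more than 1 SD over pigs after median centring, of 5 after quantile normalization and of 13 without replicate 4. Values close to the other-tissue level carry little information on order.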
